A study of Mus musculus with 4 samples.

Results

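The 10 genes described here, Eno1, Pgam1, Pgk1, Gpi1, Ldha, Aldoa, Tpi1, Hk2, Slc2a1 and Bnip3, are glycolysis and hypoxia-response genes, and each was a row of its own among the 30268 genes of the deposited count table. They were taken by name, and the questions were how much of each transcript every heart cell class carried and whether a higher level in Lats1/2 knockout hearts was shared by cells outside the epicardial lineage. Whole hearts of mouse embryos were profiled by Drop-seq, in which single cells are captured with barcoded beads and the 3′ ends of their transcripts are counted as unique molecular identifiers (UMIs), with 1 library for each genotype and stage. Controls were Wt1 CreERT2/+; Rosa26mTmG/+ and knockouts Wt1 CreERT2/+; Lats1/2 F/F; Rosa26mTmG/+ (Lats1/2 CKO), at E13.5 and E14.5, so that all 4 libraries carried the tamoxifen-inducible Cre at the Wt1 locus and the membrane reporter that makes EGFP after recombination. Wt1 is active in the epicardium, the outer layer of the heart that gives rise to most cardiac fibroblasts, and the Cre acts only where Wt1 is or was active. How many embryos entered a library, their sex and the tamoxifen schedule are not stated in the labels.

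Glycolysis breaks glucose down to pyruvate in the cytoplasm, and lactate dehydrogenase turns pyruvate into lactate when glycolysis outruns the mitochondria. Many genes of the pathway are targets of the hypoxia-inducible factors, transcription factors that are stable when oxygen is low and bind a short core sequence in their targets. The embryonic heart develops at low oxygen and its cardiomyocytes rely on glycolysis before birth. Lats1 and Lats2 are the Hippo pathway kinases that restrain the co-activators YAP and TAZ.

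The filtered libraries held 4471 (control) and 5915 (Lats1/2 CKO) cells at the earlier stage and 5504 and 5595 at the later one, with a median of 955 to 2015 UMIs per cell, and 14 cell barcodes occurred in more than 1 library. Cells were put into classes by marker transcripts that do not include the 10 genes, and the epicardial class held 122, 221, 75 and 206 cells in the same order of libraries, the fibroblast class 244, 343, 186 and 127. Among the markers that set the classes, Upk3b, a mesothelial gene, stood at 2321 CPM (UMIs per 1000000 UMIs of the class) in epicardial and 8.8 in fibroblast cells. Tcf21, a fibroblast gene, stood at 218 and 991. Both genes were used to choose the cells, and Tcf21 was required in the fibroblast class, so these values do not check the classes. Epicardial and fibroblast cells together are called the lineage below, and cardiomyocyte, coronary endothelial, endocardial, valve mesenchyme and macrophage cells are the outside classes. Mural cells, some of which derive from the epicardium, were described but left out of the outside mean. The Egfp transcript stood at 61.2 and 32.7 CPM in the control lineage and at 347 and 450 in the Lats1/2 CKO lineage, and at 7.46 to 78.4 CPM in the outside classes.

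ACGTG is a core that the hypoxia-inducible factors bind, so the 250 bases before each start in the RefSeq promoter table (GRCm38.p6, the build of the files under its other name mm10) were searched for it on both strands, where it reads ACGTG or CACGT. No other form of the core was searched, so a promoter without a match lacks only these letters. Of the 10 members, all had a promoter in the table and 7 held the core at a start, namely Pgam1, Pgk1, Ldha, Aldoa, Hk2, Slc2a1 and Bnip3, against 18.5% of 27025 genes with a promoter. Among single promoters the share was 16.6% of 32851, and 6.02% held CACGTG, a palindrome that contains the core on both strands and is also the E-box bound by other factors. The windows below are shown for 5 members of different genotype ratios, each spanning the matches at 1 start with those matches in capitals, read 5′ to 3′ on the gene's strand.
Ldha: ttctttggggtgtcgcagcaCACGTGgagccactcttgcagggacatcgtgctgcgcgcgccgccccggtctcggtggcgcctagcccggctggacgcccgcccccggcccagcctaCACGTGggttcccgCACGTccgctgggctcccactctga
Slc2a1: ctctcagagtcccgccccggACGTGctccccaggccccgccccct
Pgk1: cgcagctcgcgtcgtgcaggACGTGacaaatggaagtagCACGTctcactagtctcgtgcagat
Bnip3: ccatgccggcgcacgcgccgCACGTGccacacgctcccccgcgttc
Aldoa: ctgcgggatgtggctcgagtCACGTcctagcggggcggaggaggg
The Ldha window (chr7:46845639-46845794, plus strand) held 5 matches over both strands, from position -145 to -34 relative to the start, and 2 of its sites were CACGTG. In the Pgk1 window (chrX:106186930-106186993, plus strand) 2 matches lay at -150 and -131. The Slc2a1 window (chr4:119108689-119108733, plus strand) had 1 match, at -36, and the Aldoa window (chr7:126799356-126799400, minus strand) 1 at -126. The Bnip3 window (chr7:138909589-138909634, minus strand) held the core on both strands as 1 CACGTG. A match describes these letters only.

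**Figure D1:**
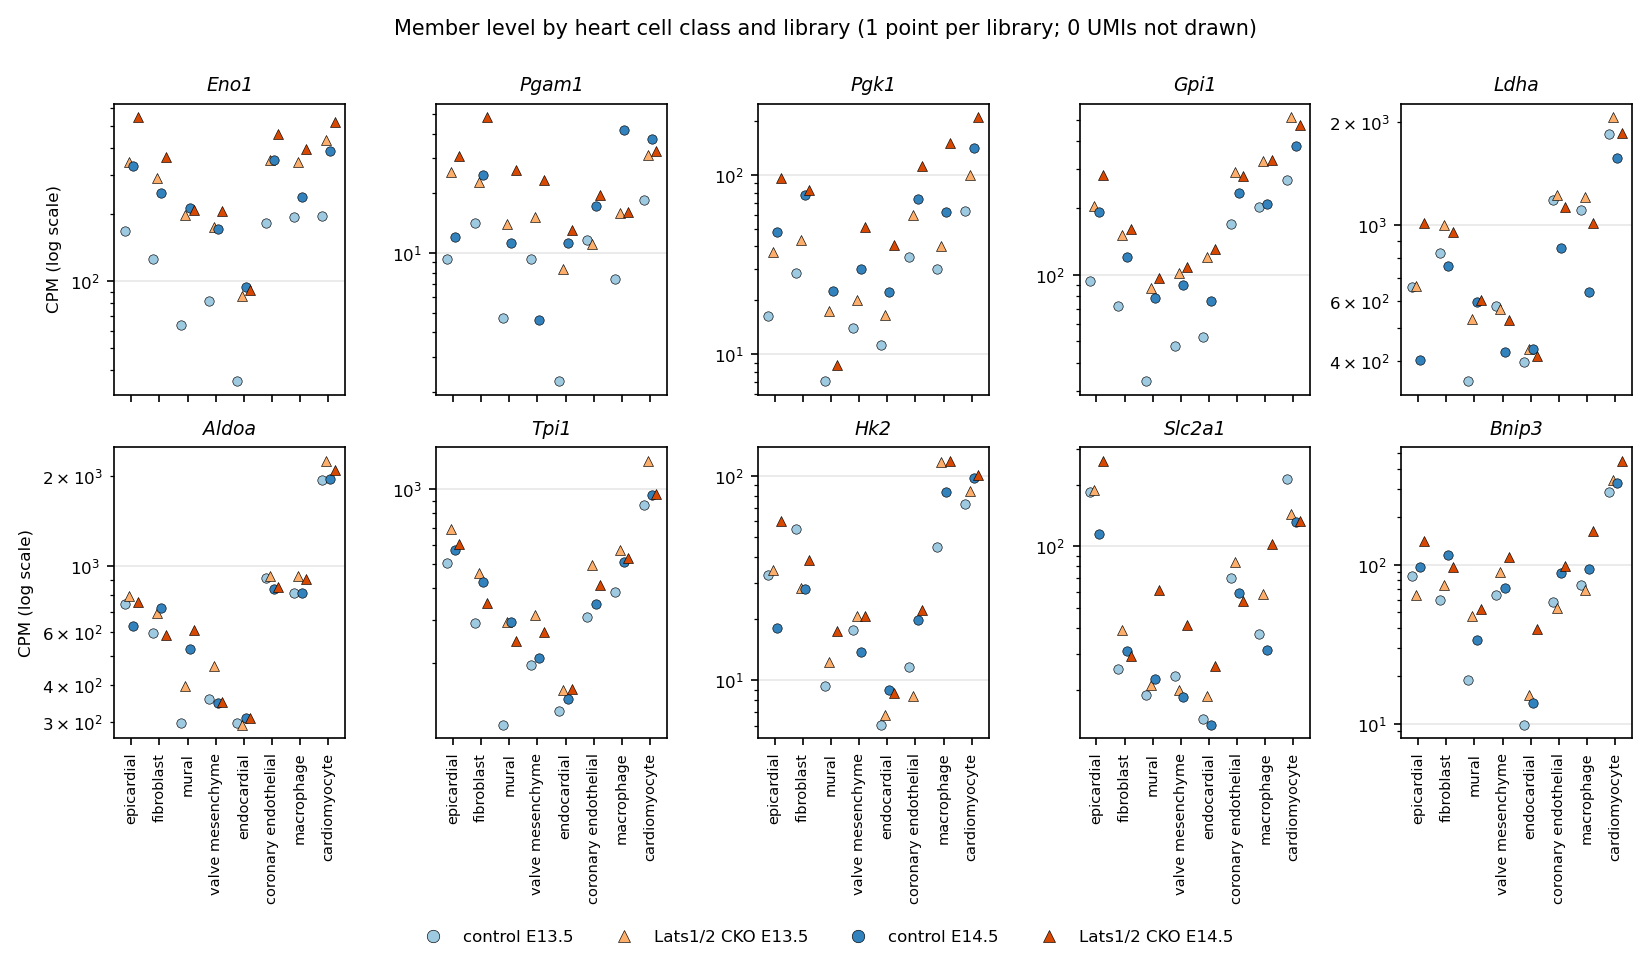
Level of each member in CPM (y axis, log scale) in 8 heart cell classes (x axis), with 1 point for each of the 4 libraries. By mean level cardiomyocytes lie highest for 8 of the 10 genes, macrophages for Hk2 and epicardial cells for Slc2a1. For Hk2 and Slc2a1 the cardiomyocytes lie above that class in both control libraries. The endocardial points lie at or near the bottom of every panel.

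Across cell classes the 10 genes followed a common order, with cardiomyocytes high and endocardial cells low. The summed level of the members was 5763, 7278, 5987 and 6828 CPM in cardiomyocytes, with the E13.5 pair first, the E14.5 pair second and the control ahead of the Lats1/2 CKO library in each pair, the order used below. In endocardial cells, the inner lining of the chambers, it was 954, 1157, 1125 and 1233 CPM. Epicardial cells lay between, at 2500, 3051, 2422 and 3800 CPM, and fibroblast cells at 2099, 2812, 2554 and 2709. In an edgeR quasi-likelihood fit over class sums of the 4 libraries with library as a block, all 10 members differed over the classes after Benjamini-Hochberg adjustment, where 87.3% of the 10630 genes tested did. In cardiomyocytes 10 of 10 members were higher than the mean of the other classes (33.8% of all genes were), with a median log2 difference of 1.98. In endocardial cells 10 of 10 were lower (17.3% of all genes), with a median of -1.43. Mural cells had 9 members lower (7.38% of all genes) and valve mesenchyme 8 (16.7%). Macrophages had 7 higher (19.5%). Coronary endothelial cells had 5 higher (22.4%) and 1, Hk2, lower (16.9%), and fibroblast cells 2, Slc2a1 and Gpi1, lower (8.13%). In the 2 control libraries alone macrophages had 2 higher, Gpi1 and Hk2, coronary endothelial cells 4 higher and 0 lower, and fibroblast cells 0 lower and 1 higher. Cardiomyocyte marker transcripts made up 6.33% to 6.91% of UMIs in cardiomyocytes and still 0.400% to 0.625% in epicardial and 0.0843% to 0.454% in endocardial cells, and the source of those UMIs and their part in the member levels were not tested.

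Slc2a1 encodes GLUT1, the facilitative transporter that brings glucose into most embryonic cells, and it was higher in epicardial and in cardiomyocyte cells than in the mean of the other classes. It stood at 184.9, 188.4, 114.5 and 261.9 CPM in epicardial cells and at 25.2, 39.2, 30.96 and 29.1 CPM in fibroblast cells, so the ranges of these classes did not overlap. Cardiomyocytes carried 214.0, 144.4, 131.2 and 132.5 CPM, which overlapped the epicardial range. The epicardial level was the higher in 2 of the 4 libraries, both Lats1/2 CKO, and the cardiomyocyte level was the higher in both controls. Against the mean of the other classes Slc2a1 was higher by a log2 of 2.20 (SE 0.16, adjusted p = 1.8e-17, edgeR) in epicardial and 2.16 (SE 0.11, adjusted p = 1.0e-24) in cardiomyocyte cells, and lower in fibroblast cells (-0.78, SE 0.24, adjusted p = 0.011). Coronary endothelial cells followed at 66.8 ± 13.3 CPM (SD, n = 4 libraries), apart from cardiomyocytes. Macrophages stood at 57.5 ± 32.3, fibroblast cells at 31.1 ± 5.9, mural cells at 30.9 ± 20.3, valve mesenchyme at 25.8 ± 10.6 and endocardial cells at 18.2 ± 5.8, and from coronary endothelial cells down neighbours overlapped.

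Hk2, the hexokinase that traps glucose as glucose 6-phosphate and can bind mitochondria, had its highest mean levels in macrophages and cardiomyocytes. Macrophages carried 44.7, 117, 83.5 and 119 CPM, on 6, 44, 8 and 22 UMIs, and cardiomyocytes 72.6, 84.0, 98.1 and 101, overlapping ranges. Fibroblast cells had 37.5 ± 12.8 CPM (SD, n = 4) and epicardial cells 36.4 ± 17.5, on 3 to 31 UMIs per library. The 4 cardiomyocyte values lay above all fibroblast and epicardial values, while the macrophage range overlapped both, with the control E13.5 macrophages (44.7) below the fibroblast cells of that library (55.1). The remaining classes stood at 7.6 to 18.2 CPM on average.

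The middle of the pathway was highest in cardiomyocytes. Gpi1, the isomerase that turns glucose 6-phosphate into fructose 6-phosphate, stood at 408.8 ± 110.5 CPM in cardiomyocytes, 267 ± 71.6 in macrophages, 243 ± 55.2 in coronary endothelial, 193 ± 77.7 in epicardial and 126 ± 39.6 in fibroblast cells (SD, n = 4 libraries). Aldoa, the aldolase that splits fructose bisphosphate, had 2062 ± 147 CPM in cardiomyocytes, apart from 883 ± 43.5 in coronary endothelial cells, and reached 733 ± 70.4 in epicardial and 652 ± 69.6 in fibroblast cells. Tpi1, which interconverts the triose phosphates, stood at 1018 ± 195 CPM in cardiomyocytes and at 594 ± 78.5 in epicardial cells, the next class and apart from it. Tpi1 and Eno1, with Slc2a1, Gpi1 and Hk2, were the 5 members higher in epicardial cells than in the mean of the other classes (20.4% of all genes were), by a log2 of 0.75 (SE 0.08) for Tpi1. In the 2 control libraries alone 3 were higher and 1 lower.

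Pgk1, the kinase that forms the first ATP of the pathway, had 129 ± 63.4 CPM in cardiomyocytes and 49.7 ± 34.2 in epicardial cells (SD, n = 4). Pgam1, the brain-type phosphoglycerate mutase, was the scarcest member at 30.1 ± 8.2 CPM in cardiomyocytes and 19.5 ± 10.5 in epicardial cells, on 2 to 20 UMIs per library there. Pgam1 is identical to its pseudogene copy Pgam1-ps2 over 765 bases, and Pgk1 to Pgk1-rs7 over 1255. How reads of such copies were counted was not given. The part of the copies in these low levels, and in the Pgam1 share of its isoform pair, was not tested. Eno1, the enolase of non-muscle cells, stood at 384 ± 137 CPM in cardiomyocytes, 349 ± 156 in epicardial, 336 ± 114 in coronary endothelial, 293 ± 92.3 in macrophage and 258 ± 99.9 in fibroblast cells, and these ranges overlapped. Ldha, the lactate dehydrogenase subunit that favours lactate, had 1837 ± 203 CPM in cardiomyocytes, 885 ± 111 in fibroblast and 684 ± 251 in epicardial cells. Bnip3, a mitochondrial protein of hypoxia-induced mitophagy, stood at 351 ± 69.9 CPM in cardiomyocytes, apart from 99.98 ± 42.8 in macrophages, the next class.

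**Figure D2:**
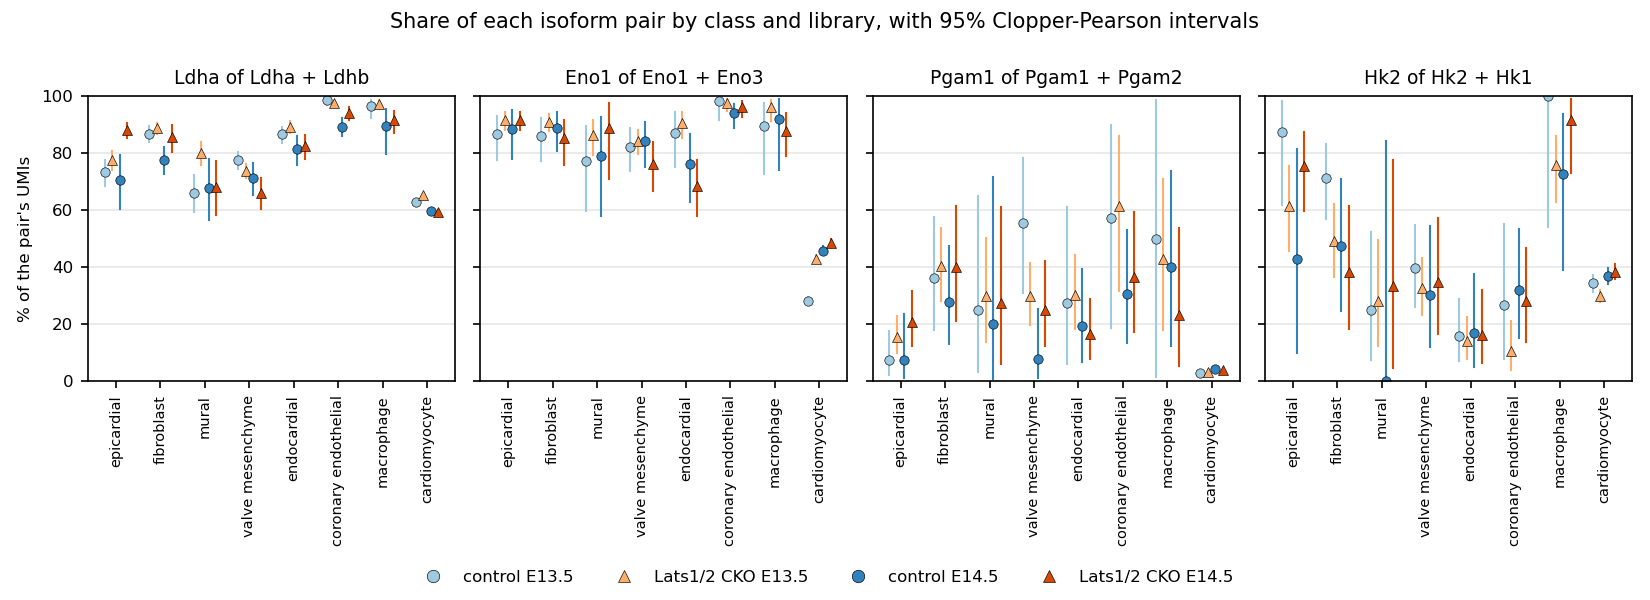
Share of the UMIs of an isoform pair that came from the member (y axis, percent) by class (x axis) and library (points), with 95% Clopper-Pearson intervals that cover counting error only. The Pgam1 share is lowest in cardiomyocytes, where all 4 points lie at 2.6% to 4.2%, and the Ldha share of epicardial cells is highest in the Lats1/2 CKO E14.5 library. Pgam1 has a pseudogene copy identical over 765 bases, and the part of that copy in the Pgam1 share was not tested.

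Among the isoform partners of the members, Eno3, Pgam2, Ldhb and Hk1 lay apart from every other class in cardiomyocytes. Eno3, the muscle enolase, was at 524 ± 51.2 CPM in cardiomyocytes and at 12.7 to 36.8 CPM in the other classes, and Pgam2, the muscle mutase, at 838 ± 108 CPM against 134 ± 18.4 in epicardial cells and 22.4 to 49.2 elsewhere. Ldhb, the subunit that favours pyruvate, stood at 1135 ± 98.2 CPM in cardiomyocytes and at 53.4 to 218 in the others. Hk1 was at 168 ± 24.4 CPM in cardiomyocytes and 17.5 ± 8.8 in epicardial cells. Slc2a3 stood highest in macrophages, at 31.1 ± 9.9 CPM, Slc2a4, the insulin-responsive transporter, at 19.4 ± 3.5 in cardiomyocytes and at most 6.7 elsewhere. Eno2 reached 13.2 ± 7.8 CPM in epicardial cells, and Aldoc 31.8 ± 8.8 in cardiomyocytes and 25.1 ± 10.4 in epicardial cells, with at most 10.7 in other classes. As a share of the Ldha and Ldhb UMIs, Ldha made up 59.2% to 65.2% in cardiomyocytes and 89.4% to 98.8% in coronary endothelial cells. In epicardial cells the Ldha share was 73.4%, 77.6%, 70.5% and 88.3% in the 4 libraries.

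The genes whose level over the 32 class and library points was most like the mean of the members were Pfkl, the liver-type phosphofructokinase (Pearson r = 0.92), Pdk1, the kinase that closes pyruvate dehydrogenase (0.88), Slc16a3, the lactate exporter MCT4 (0.87), Mrps15 of the mitochondrial ribosome (0.83) and Mif, a cytokine gene (0.83), among 4253 genes of at least 50 CPM on average. These are descriptions over points that share libraries and cell classes.

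Summed over the members, the level in Lats1/2 CKO hearts was above the control of its stage in all 8 classes at both stages, with counting intervals that included 0 in fibroblast, mural and endocardial cells at E14.5. No member passed the genotype test in any class. The summed level in the lineage was 2260, 2911, 2509 and 3489 CPM, which gave E13.5 and E14.5 log2 ratios of 0.37 (95% counting interval 0.30 to 0.43) and 0.48 (0.38 to 0.58). In cardiomyocytes, where Wt1 stood at 1.4 CPM, the ratios were 0.34 (0.32 to 0.36) and 0.19 (0.17 to 0.21). Wt1 was an epicardial marker of the gate, and cells that passed both gates were left out, so this low Wt1 level is partly set by the choice of cells. These exact conditional binomial intervals cover counting error only, since each genotype and stage had 1 library. In the edgeR quasi-likelihood fit with stage as an additive term, 0 of the 10 members were called in the lineage after Benjamini-Hochberg adjustment, where 0.0782% of 10230 genes were called higher and 0.0293% lower, and 3 members and 652 of all genes had an unadjusted p below 0.05. DESeq2 on the same design called 0 members, with 2 members and 156 of all genes below 0.05. All 10 estimates were above 0, with a median of 0.54 against 0.01 for all genes. Without the Lats1/2 CKO E14.5 library 7 of 10 were above 0, with a median of 0.32, and without Lats1/2 CKO E13.5 all 10 were, with a median of 0.92. Genotype fits that left out 1 library also dropped the stage term. Their estimates can therefore hold a difference between stages as well as the genotype effect. The common dispersion of the lineage was 0.0534, and in simulated counts with a dispersion of 0.05 this fit recovered 0 of 200 genes changed by a factor of 2 and 86.4% of those changed by a factor of 4.

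**Figure D3:**
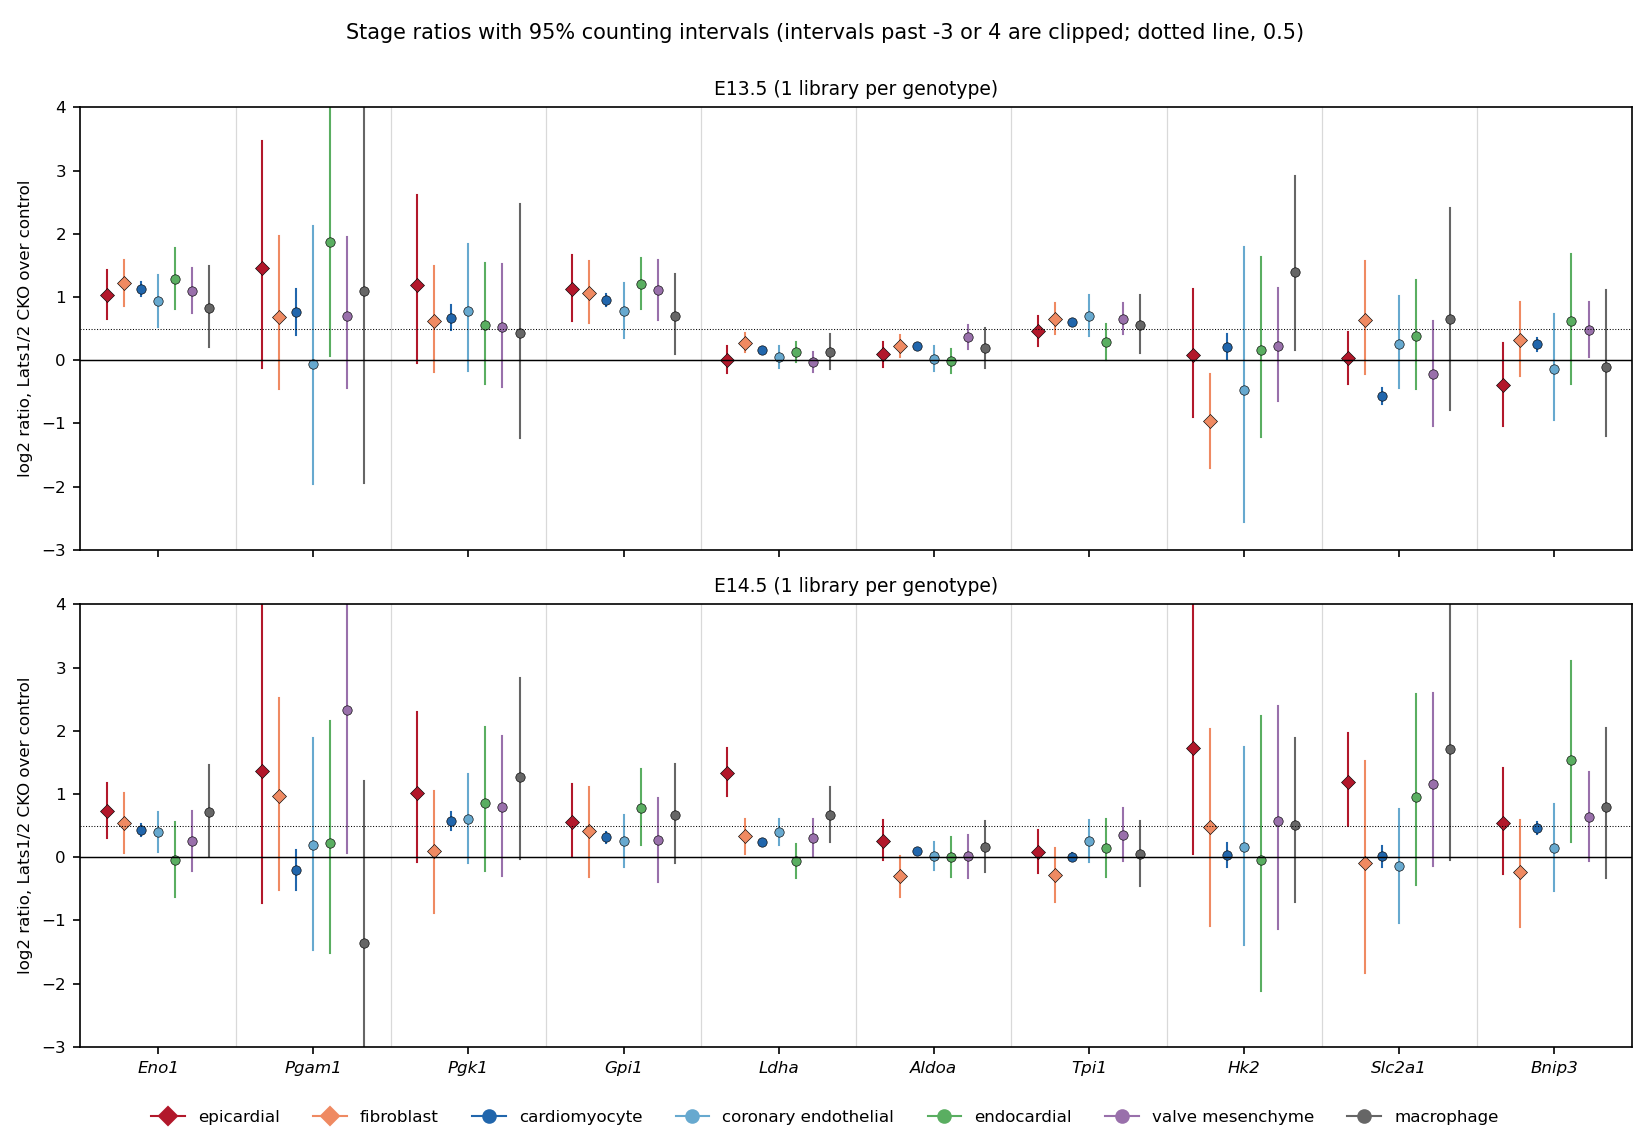
Log2 ratio of the CPM in Lats1/2 CKO over control (y axis) for each member (x axis) at E13.5 (upper panel) and E14.5 (lower panel), with diamonds for epicardial and fibroblast cells, circles for the 5 outside classes and bars for 95% counting intervals. At E13.5 all 7 classes of Eno1 and Gpi1 lie above 0.5, and at E14.5 the epicardial Ldha point, at 1.33, lies above the other classes.

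Eno1 and Gpi1 had E13.5 ratios with intervals above 0 in all 8 classes. Eno1 stood at 169, 346, 331 and 549 CPM in epicardial, 126, 293, 251 and 364 in fibroblast, 197.5, 431.1, 387.4 and 522.0 in cardiomyocyte and 35.5, 86.3, 94.1 and 91.4 in endocardial cells. In each of these classes the control E13.5 library was the low one. The E13.5 log2 ratio of Eno1 was 1.04 (0.66 to 1.43) in epicardial and 1.22 (0.86 to 1.59) in fibroblast cells, and 0.83 to 1.28 in the 5 outside classes, each with an interval above 0. At E14.5 it was 0.73 (0.31 to 1.17) and 0.54 (0.07 to 1.01), and -0.04 to 0.72 outside. Gpi1 stood at 93.6, 204, 193 and 283 CPM in epicardial and 266.5, 516.1, 380.3 and 472.3 in cardiomyocyte cells. Its E13.5 ratio was 1.12 in epicardial, 1.06 in fibroblast and 0.70 to 1.204 in outside classes, and its E14.5 ratio 0.56, 0.41 and 0.26 to 0.78. The lineage fit gave 1.02 for Eno1 (SE 0.22, unadjusted p = 0.0014, adjusted p = 0.29, edgeR) and 0.97 for Gpi1 (SE 0.225, unadjusted p = 0.0022, adjusted p = 0.35), both higher in Lats1/2 CKO at both stages. Leaving out 1 library and the stage term, the estimate ran for Eno1 from 0.54 without control E13.5 (0.56 without Lats1/2 CKO E14.5) to 1.57 without control E14.5, and for Gpi1 from 0.53 (0.61) to 1.44 without the same libraries. Without the filter on low counts, which had 22746 genes in the fit, the adjusted p was 0.0048 for Eno1 and 0.022 for Gpi1, and over all alternatives it ran from these values up to 0.99995 for each.

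Reads of both genes can be shared with near-identical copies elsewhere in the genome, and how the authors counted such reads was not given. Against the annotated transcripts (GENCODE M21, GRCm38, at least 95% identity over at least 300 bases), Eno1 had 3 copies (Eno1b, Gm4735 and Gm5855), Pgk1 4, Ldha and Bnip3 3 each, and Gpi1, Pgam1 and Tpi1 1 each, while Aldoa, Hk2 and Slc2a1 had 0. Over all genes with at least 200 UMIs in cardiomyocytes, 31.9% of the 1367 with a copy stood higher in Lats1/2 CKO at E13.5 by a log2 of at least 0.5 with the counting interval above 0, against 7.37% of the 7450 without. In the lineage these shares were 21.4% and 6.85%. The same gap was present between the controls: 41.6% and 9.58% of these genes in cardiomyocytes, and 31.2% and 6.08% in the lineage, stood higher in control E14.5 than in control E13.5. At E14.5 the genotype shares were 3.29% and 2.90% in cardiomyocytes and 6.24% and 10.1% in the lineage, while 26.3% and 7.21% in cardiomyocytes and 16.8% and 8.69% in the lineage stood lower by the same rule. The part of this in the E13.5 ratios of the members with copies was not tested. Among all genes with at least 20 UMIs, control E13.5 was the lowest of the 4 libraries for 21.6% in the lineage and 29.2% in cardiomyocytes, and for 7 and 8 of the 10 members.

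The Tpi1 ratio had an interval above 0 at E13.5 in the lineage and the 5 outside classes, and at E14.5 in none of these. Its level stood at 506, 695, 572 and 605 CPM in epicardial, 291, 459, 424 and 350 in fibroblast and 861, 1303, 951 and 957 in cardiomyocyte cells. Its log2 ratio at E13.5 was 0.46 (0.23 to 0.69), 0.66 (0.41 to 0.91) and 0.60 (0.54 to 0.65), and at E14.5 0.08, -0.28 and 0.01, with intervals that reached both sides of 0. Pgk1 stood at 16.4, 37.2, 48.2 and 97.0 CPM in epicardial cells and at 63.2, 101, 142 and 211 in cardiomyocytes, where the ratios were 0.67 (0.47 to 0.87) and 0.57 (0.43 to 0.71). In both classes the Lats1/2 CKO library lay above the control of its stage, while the epicardial intervals (-0.04 to 2.62 and -0.08 to 2.30) included 0. Pgam1 stood at 9.4, 25.6, 12.0 and 31.04 CPM in epicardial cells on 4, 20, 2 and 16 UMIs, and its intervals there included 0. Aldoa, without a copy, stood at 747, 796, 633 and 759 CPM in epicardial cells, 598, 699, 725 and 587 in fibroblast cells and 1939, 2257, 1958 and 2092 in cardiomyocytes, with ratios of -0.30 to 0.37 over all epicardial, fibroblast and outside values.

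By the rule of a log2 of at least 0.5 with the counting interval clear of 0, 5 of 10 members stood higher in the Lats1/2 CKO lineage at E13.5 (Eno1, Pgam1, Pgk1, Gpi1 and Tpi1), where 9.06% of 12630 genes did. In cardiomyocytes at E13.5 these same 5 members passed the rule, where 12.2% of 15889 genes did. At E14.5 the lineage members were Eno1, Gpi1, Ldha, Hk2 and Slc2a1 (7.12% of all genes), and the cardiomyocyte member was Pgk1 alone (3.35%). The rule passed 4 members in epicardial cells at E14.5 (Eno1, Ldha, Hk2 and Slc2a1, against 4.32% of 10112 genes) and 1 in fibroblast cells (Eno1, 4.15% of 10559 genes). In valve mesenchyme, coronary endothelial and endocardial cells at E13.5 it passed 3 members each, always including Eno1 and Gpi1, against 9.09%, 6.66% and 9.23% of all genes, and in macrophages 4 of the 9 with at least 20 UMIs, against 5.87%. At E14.5 these classes had 1 (Pgam1), 0, 2 (Gpi1 and Bnip3) and 2 (Eno1 and Ldha), against 2.77%, 3.47%, 2.94% and 3.47%. Mural cells, with 7 members measured, had 5 at E13.5 (7.57% of all genes) and 0 at E14.5 (2.06%). Epicardial cells had 2 at E13.5 (Eno1 and Gpi1, 7.87%) and fibroblast cells 3 (Eno1, Gpi1 and Tpi1, 8.14%). Set against control E13.5, the control E14.5 library also stood higher for 4 members in the lineage (Eno1, Pgk1, Gpi1 and Bnip3, where 9.03% of genes did) and for 4 in cardiomyocytes (Eno1, Pgam1, Pgk1 and Gpi1, 16.3%). Without the condition on the interval, a log2 of at least 0.5 at E13.5 was reached by 5 of 10 members in the lineage (19.9% of all genes), 4 in epicardial cells (22.6%), 6 in fibroblast cells (19.6%) and 25 of 50 member and class values outside (21.1%). At E14.5 these were 6 (22.7%), 8 (27.5%), 2 (24.1%) and 18 of 50 (17.3%). The 50 values include Pgam1 in macrophages, on 1, 6, 4 and 3 UMIs, while the shares of all genes hold only genes with at least 20 UMIs. The comparison between the controls shares its control E13.5 library with the E13.5 genotype ratios.

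Ldha, Slc2a1 and Hk2 passed the rule in epicardial cells at E14.5 and not at E13.5, a difference between stages that was not tested. Ldha stood at 658, 661, 404 and 1015 CPM there, so that the control E14.5 library was the low one and the Lats1/2 CKO E14.5 library the high one. The E13.5 ratio was 0.01 (-0.21 to 0.22) and the E14.5 ratio 1.33 (0.96 to 1.72). In fibroblast cells Ldha stood at 828, 1001, 758.5 and 951.5 CPM, with ratios of 0.27 (0.12 to 0.43) and 0.33 (0.05 to 0.60), and in cardiomyocytes at 1845, 2070, 1575 and 1858, with 0.17 (0.13 to 0.20) and 0.24 (0.19 to 0.28). The epicardial interval at E14.5 did not meet those of fibroblast, cardiomyocyte, valve mesenchyme (0.31, 0.01 to 0.60), coronary endothelial (0.40, 0.20 to 0.61) or endocardial cells (-0.06, -0.33 to 0.21), and it met that of macrophages (0.67, 0.24 to 1.11). Slc2a1 in epicardial cells had ratios of 0.03 (-0.38 to 0.44) and 1.19 (0.50 to 1.97). In macrophages the Slc2a1 ratio at E14.5 was 1.71 (-0.05 to 4.11), on 3 and 19 UMIs. Hk2 stood at 32.8, 34.6, 18.1 and 60.1 CPM in epicardial cells, a ratio of 1.73 (0.05 to 4.09) at E14.5 on 3 and 31 UMIs. The control E14.5 epicardial values rest on 75 cells. In fibroblast cells at E13.5 the Hk2 level was 55.1 CPM for the control and 28.3 for the Lats1/2 CKO library (-0.96, -1.71 to -0.22), the only member that stood lower there by the rule (7.11% of all genes).

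The lineage values of Slc2a1 also move with the mix of its classes. Epicardial cells gave 40.2% and 41.6% of the lineage UMIs at E13.5, and 33.9% in control and 71.4% in Lats1/2 CKO at E14.5. The lineage ratio of Slc2a1 at E14.5 was 1.72 (1.14 to 2.35), above both the epicardial ratio of 1.19 and the fibroblast ratio of -0.09 (-1.83 to 1.51). At that stage Eno1 (0.84 against 0.73 and 0.54), Gpi1 (0.77 against 0.56 and 0.41) and Tpi1 (0.17 against 0.08 and -0.28) also lay above both. Pgam1 lay below both (0.82 against 1.37 and 0.97). Gpi1 passed the rule at E14.5 in the lineage but in neither of its classes alone. With each class fitted alone, the edgeR estimate of Slc2a1 over both stages was 0.50 in epicardial cells (SE 0.31, adjusted p = 0.84) and 0.40 in fibroblast cells (SE 0.46, adjusted p = 0.9999), against 0.89 in the lineage (SE 0.36, adjusted p = 0.74). With the stage term dropped, the lineage estimate of Slc2a1 was 0.41 without the Lats1/2 CKO E14.5 library and 1.46 without Lats1/2 CKO E13.5. In cardiomyocytes Slc2a1 stood lower in Lats1/2 CKO at E13.5 (-0.57, -0.69 to -0.44), the only member to do so by the rule (6.89% of all genes), and its E14.5 ratio was 0.01 (-0.15 to 0.18). Bnip3 stood at 84.3, 64.1, 96.4 and 140 CPM in epicardial cells and at 286, 340, 326 and 450 in cardiomyocytes, where the ratios were 0.25 (0.15 to 0.35) and 0.46 (0.37 to 0.56). Its lineage ratios were 0.01 (-0.41 to 0.44) and 0.23 (-0.27 to 0.75).

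**Figure D4:**
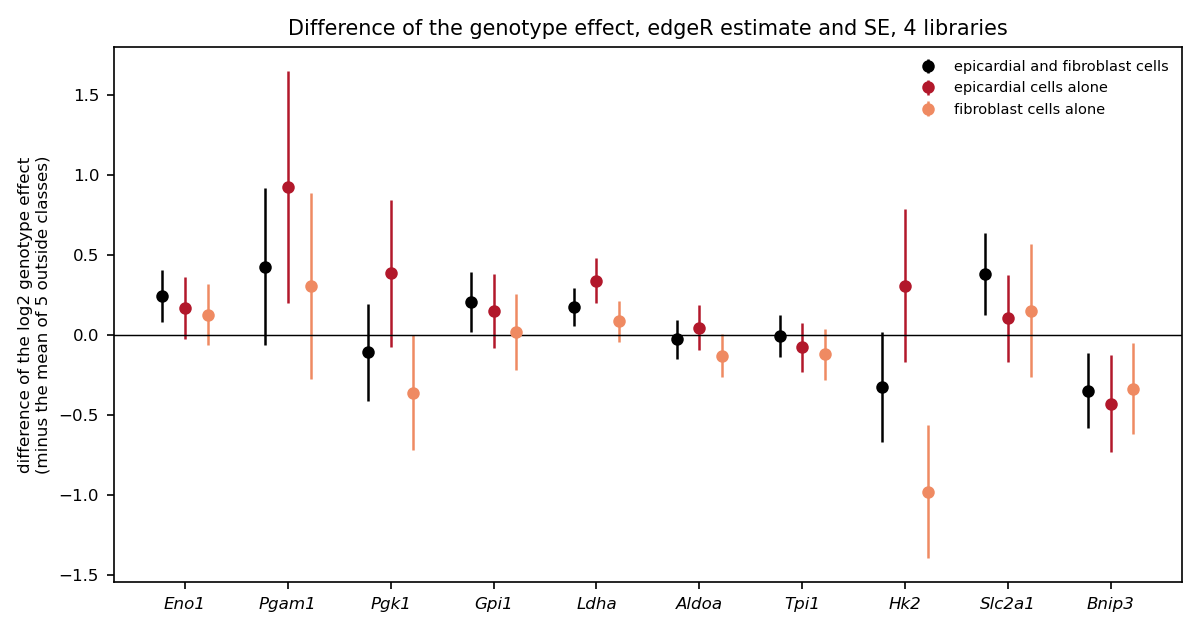
Difference between the log2 genotype effect of the lineage, or of epicardial or fibroblast cells alone, and the mean effect of the 5 outside classes (y axis) for each member (x axis), with bars for the SE of the edgeR fit over 4 libraries. The lineage points lie between -0.35 and 0.43, on both sides of 0.

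The genotype effect of the members was not shown to differ between the lineage and the outside classes. This was tested as the genotype effect in the lineage minus the mean effect of the 5 outside classes, in 1 edgeR quasi-likelihood fit with library as a block, in which a shift shared by a whole library cancels. Of 10 members 0 passed, and 0 had an unadjusted p below 0.05, where 0.182% of 12663 genes were called higher and 0.0474% lower, and 858 genes had an unadjusted p below 0.05. Egfp, the reporter transcript, passed at 2.05 (SE 0.33, adjusted p = 5e-06). Both genotypes carried the same Cre and reporter, and the source of this Egfp difference was not tested. The estimates were 0.43 for Pgam1 (SE 0.49), 0.38 for Slc2a1 (SE 0.26), 0.24 for Eno1 (SE 0.16), 0.20 for Gpi1 (SE 0.19) and 0.18 for Ldha (SE 0.12). They were -0.01 for Tpi1 (SE 0.13), -0.03 for Aldoa (SE 0.12), -0.11 for Pgk1 (SE 0.30), -0.32 for Hk2 (SE 0.34) and -0.35 for Bnip3 (SE 0.23), so 5 lay on each side of 0. Thinned to 500 UMIs, Gpi1 was at 0.82 and Hk2 at -0.78. For Slc2a1 the difference was 0.10 (SE 0.27) with epicardial and 0.15 (SE 0.42) with fibroblast cells alone in place of the lineage. These values were 0.17 (SE 0.19) and 0.13 (SE 0.19) for Eno1, and 0.15 (SE 0.23) and 0.02 (SE 0.24) for Gpi1. For Tpi1 they were -0.08 (SE 0.15) and -0.12 (SE 0.16). The lineage estimates of these genes thus lay above those of both classes alone. A missed threshold does not show that the classes responded alike: in simulated counts with a dispersion of 0.05, a difference of a factor of 2 was recovered in 0% of 177 genes and of a factor of 4 in 46.6% of 176.

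With epicardial cells alone in place of the lineage, Ldha had the smallest p of the members, at 0.34 (SE 0.14, unadjusted p = 0.017, adjusted p = 0.46, edgeR, where 0.175% of genes were called higher and 0.0963% lower), and with fibroblast cells alone Hk2, at -0.98 (SE 0.415, unadjusted p = 0.018, adjusted p = 0.76, where 0.0602% were called higher and 0% lower). Both fits were chosen after the values were seen. In the outside classes themselves, 0 of the 44 member and class estimates that could be fitted were called by edgeR or DESeq2. Of these 42 were above 0, and Slc2a1 in cardiomyocytes (-0.26) and Aldoa in endocardial cells (-0.0013) were the exceptions. The median member effect was 0.31 in cardiomyocytes, 0.37 in coronary endothelial, 0.38 in macrophage, 0.54 in valve mesenchyme and 0.67 in endocardial cells. Each of these moved by over 1.5 times when 1 library and the stage term were left out: to 0.19 in cardiomyocytes without Lats1/2 CKO E14.5, 0.21 in coronary endothelial and 0.35 in valve mesenchyme cells without control E13.5, 0.91 in macrophages without Lats1/2 CKO E13.5, and 0.17 in endocardial cells without control E13.5 (5 of 8 members above 0). Such shifts can hold a difference between stages. Thinned to 500 UMIs, the endocardial median was 0.044. Gene calls of the same edgeR fit were 0.038% higher and 0% lower in epicardial cells, 0.0511% and 0.0128% in fibroblast cells and 0.203% and 0.11% in mural cells. They were 0.0737% higher and 0.0632% lower in valve mesenchyme, 0.0577% and 0.0433% in coronary endothelial, 0.0194% and 0% in endocardial, and 0% in macrophage and cardiomyocyte cells.

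Within the Lats1/2 CKO libraries, lineage cells with an Egfp UMI could be set beside those without. In epicardial cells of Lats1/2 CKO E14.5, 84 cells with Egfp had 1074 CPM of Ldha and 122 without had 897, a log2 ratio of 0.26 (-0.02 to 0.54). Slc2a1 stood at 280 and 226 CPM (0.31, -0.24 to 0.89) and Eno1 at 499 and 648 (-0.38, -0.73 to -0.02) in the same cells. Over the 40 member comparisons in both classes and stages, 1 counting interval lay above 0 and 2 below. Cells with Egfp were deeper (median 1682 against 1102 UMIs in this example), and a cell without an Egfp UMI may still have recombined.

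Other measures moved with genotype and stage beside these ratios. The median mitochondrial share of the lineage was 2.20%, 2.02%, 2.04% and 2.84%, and in cardiomyocytes 3.65%, 3.43%, 3.12% and 5.03%. Median depth at E13.5 was 1907 UMIs in the control and 2593 in the Lats1/2 CKO lineage, and the E14.5 medians were 1180 and 1242. Haemoglobin transcripts, which mark red cell RNA, made up 0.0450%, 0.0846%, 0.182% and 0.148% of lineage UMIs. The part of these in the member ratios was not tested.

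The other genes of the pathway gave 0 calls in the lineage and 0 in the difference test in each of 4 lists. Of 20 other glycolytic enzymes and isoforms 12 could be fitted in the lineage, with 0 at an unadjusted p below 0.05 and a median of 0.19. Eno3, Pgm2 and Pfkl lay above 0 at both stages and Ldhb below (-0.16 and -0.50). Of 15 genes of glucose, lactate and pyruvate transport and pyruvate dehydrogenase control 10 could be fitted, with 3 below 0.05 and a median of 0.57. Bsg, the chaperone of the lactate transporters, stood at 472, 902, 798 and 1192 CPM in the lineage and at 539, 842, 733 and 856 in cardiomyocytes, with the Lats1/2 CKO library above its control in both. Slc16a1, which encodes the transporter MCT1, stood at 112, 156, 73.6 and 229 CPM in the lineage, with ratios of 0.47 (0.16 to 0.79) and 1.64 (1.11 to 2.20), and its cardiomyocyte ratios were -0.13 and 0.03. Its difference from the outside classes was 0.58 (SE 0.32) for the lineage, 0.35 (SE 0.33) for epicardial and -0.14 (SE 0.43) for fibroblast cells alone, so the lineage value, as for Slc2a1, lay above both of its classes. Slc16a3 and Pdha1 had lineage ratios of 0.26 and 1.19, and 0.24 and 0.58.

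Of 25 other hypoxia-responsive genes 22 could be fitted in the lineage, with 5 below an unadjusted p of 0.05 and a median of 0.41. Adm, a vasodilator peptide gene induced by hypoxia, had the largest value, at 5.6, 37.3, 2.0 and 55.4 CPM in the lineage on 6, 70, 1 and 40 UMIs, and an edgeR estimate of 3.32 (SE 0.55, unadjusted p = 0.00024, adjusted p = 0.13). In cardiomyocytes Adm stood at 1.46, 5.40, 4.02 and 8.48 CPM. By the interval rule Adm was also higher in Lats1/2 CKO at both stages in cardiomyocyte and coronary endothelial cells, and at neither stage in the other outside classes. Its difference between lineage and outside classes could not be estimated closely (0.60, SE 8.20). P4ha1, a collagen prolyl hydroxylase subunit, had lineage ratios of 0.44 (0.26 to 0.62) and 0.65 (0.33 to 0.98) and cardiomyocyte ratios of 0.07 and -0.01, with a difference of 0.41 (SE 0.16, unadjusted p = 0.011, adjusted p = 0.51, edgeR). Kdm3a, a histone demethylase gene named after its values were seen, had the opposite sign, with lineage ratios of -0.53 and -0.37, cardiomyocyte ratios of 0.06 and 0.15, and a difference of -0.77 (SE 0.27, unadjusted p = 0.0046, adjusted p = 0.41, edgeR). Ak4 and Ero1l had lineage ratios of 0.59 and 1.31, and 0.51 and 0.49. Of 9 genes of the hypoxia-inducible factor machinery 8 could be fitted in the lineage, with 0 below 0.05 and 4 on each side of 0. In the difference test 1 of the 9 was below 0.05. This was Epas1, named after its values were seen, at 6.42 (SE 2.05, unadjusted p = 0.0018, adjusted p = 0.27, edgeR). With epicardial cells alone the Epas1 difference was 6.04 (SE 3.12), and with fibroblast cells alone 6.60 (SE 2.50). By the rule for stage ratios Epas1 was called higher or lower in no class at either stage. The part of low counts in an outside class in this large value was not tested. Hif1a, the oxygen-sensitive subunit, stood at 123.3, 122.5, 118.6 and 90.1 CPM and Egln2, a prolyl hydroxylase that marks it for degradation, at 40.5, 49.5, 18.4 and 58.2.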

How the data were processed

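Single-cell transcripts of whole mouse hearts were counted by Drop-seq in 4 libraries, 1 per genotype and stage. The deposited table holds whole UMI counts per gene and cell (30268 genes, 24849 cells). Per the submitters' processing notes, STAR, Picard and the build mm10 were used, with versions, gene models and the treatment of reads with several matches not given in the sources used here. Cells under 500 UMIs or 300 genes, or above 20% mitochondrial counts, were dropped. The rest, less the few cells called as doublets, were kept (4471 to 5915 per library, 8562194 to 17073173 UMIs). Cells were gated into classes by marker sums per 10000 UMIs, with thresholds set after seeing the cells. Leiden clusters (scanpy 1.11.5) named from the same markers were the alternative, and 70.9% to 99.8% of a class's gated cells lay in the cluster of its name. The doublet caller marked only 7, 0, 1 and 2 cells and so did not work. Those cells were removed, and the reported values were otherwise not cleared of doublets.

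Counts were summed per class and library, and tested with edgeR 4.0.16 (R 4.3.3; TMM, low-count filter, Benjamini-Hochberg adjusted p under 0.05), with 1 residual degree of freedom for genotype, and DESeq2 1.42.0 as an alternative. P-values measure only the spread between these libraries. Per-stage ratios carry exact conditional binomial intervals (95%, counting error only). Calls by the rule that uses the interval were made only for genes with at least 20 UMIs in the class. Fits were tested on simulated data. Genes of other lists were named where they passed a test, and otherwise up to 4 per list with the largest ratio of 1 sign at both stages in the lineage. The members and lists were chosen with earlier results of these data known. Promoters were read from RefSeq (GRCm38.p6).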

Additional observations from a re-analysis of the deposited data

Results flagged for a closer look

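In fibroblast cells at E13.5 the Hk2 ratio of Lats1/2 CKO over control was -0.96, while in epicardial cells at E14.5 (1.73) and macrophages at E13.5 (1.39) it lay on the other side of 0 with counting intervals clear of 0. In cardiomyocytes at E13.5 the Slc2a1 ratio was -0.57, while in epicardial cells at E14.5 it was 1.19. Each was picked out because classes moved in opposite directions, and neither difference between classes was tested.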

How the results depend on the processing

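No paired analysis was possible because all groups carry only replicate number 1. The stage that pairs control and Lats1/2 CKO libraries is a term of the genotype fit, and library a block in the level and difference fits. The counts of members called were 0 in the lineage under every alternative but no filter on low counts (2, Eno1 and Gpi1), and 0 in the difference test under all 17. In the lineage the estimate without 1 library and without the stage term ran below 0 for Pgk1 (-0.095 without Lats1/2 CKO E14.5 and -0.063 without control E13.5, up to 1.52 without control E14.5), Hk2 (-0.26 without Lats1/2 CKO E14.5 and -0.10 without control E14.5, up to 0.74 without control E13.5) and Bnip3 (-0.34 without Lats1/2 CKO E14.5 and -0.16 without control E13.5, up to 0.62 without Lats1/2 CKO E13.5). These estimates can hold a difference between stages.

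Differences near 0 changed sign. Pgk1 was 0.050 with Leiden clusters and 0.045 with at least 1000 UMIs. Aldoa was 0.012 thinned to 500 UMIs, 0.026 with at least 1000 UMIs, 0.0010 without cells over 1% haemoglobin, 0.021 with DESeq2 size factors, 0.035 without valve mesenchyme and 0.019 without macrophages. Tpi1 was 0.095 with Leiden clusters, 0.12 thinned, 0.015 with at least 1000 UMIs, 0.026 without haemoglobin-rich cells, 0.0095 without the 5% highest doublet scores (chosen after seeing the data), 0.041 with DESeq2 size factors, 0.012 without TMM, 0.0012 without the filter, and 0.048, 0.060 and 0.014 without coronary endothelial, valve mesenchyme and macrophage cells.

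Of ratios of at least 0.5 on the log2 scale with no condition on the interval, thinning to 500 UMIs left 3 of 10 in the lineage at E13.5 (5 unthinned) and gave 2 and 4 in fibroblast cells at E13.5 and E14.5 (6 and 2 unthinned). Means over cells gave 3 in fibroblast cells at E13.5. Leiden clusters gave 8 of 50 in the outside classes at E14.5 (18 by gate). Thinned, the lineage ratio of Pgk1 at E13.5 was -0.21, and the level differences of Hk2 in coronary endothelial (0.093) and valve mesenchyme cells (0.38) and of Pgk1 in coronary endothelial cells (-0.090) changed sign. The cause was not tested. The mural class under the stricter gate, and epicardial, macrophage and mural cells at 1000 UMIs, held under 50 cells in a library and were not run.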
